A study of Homo sapiens with 6 samples.

Results

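The genes described here are the dual-specificity MAP kinase phosphatases DUSP1, DUSP2, DUSP4, DUSP5, DUSP6, DUSP7, DUSP8, DUSP10 and DUSP16. They were chosen by symbol for their known feedback on the kinases ERK, JNK and p38, and each symbol matched 1 gene, which gave 9 of the 35052 genes summed from the transcript tables. RNA was taken from EoL-1, an established human leukaemia line with eosinophilic features that serves in place of primary eosinophils. In one group ATF3, a bZIP transcription factor that cells induce under stress, had been disrupted with CRISPR/Cas9, and 3 libraries of these ATF3 knockout cells were set against 3 libraries of wild-type EoL-1 cells. Both groups were grown in the same serum-containing medium with no further treatment named, and polyadenylated RNA was sequenced from each. The title of the series concerns eosinophils in adipose angiogenesis, and its design text calls the derivative a knockdown, whereas the sample labels call it a knockout. Replicates are not described as separate cultures or clones, and whether the wild-type cells passed through the editing procedure is not stated, so each p-value reflects variation among these libraries, which may be technical.

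MAP kinase phosphatases end the signal of a MAP kinase by removing the phosphate from both the threonine and the tyrosine of its activation loop. Many of them are themselves transcribed in response to the kinase that they inactivate, and so form negative feedback loops. Members fall into an inducible nuclear class (DUSP1, DUSP2, DUSP4 and DUSP5), a cytoplasmic class that prefers ERK (DUSP6 and DUSP7), and a class that prefers JNK and p38 (DUSP8, DUSP10 and DUSP16). In myeloid cells they are known for limiting the output of growth factor and inflammatory signals. An mRNA level gives neither the amount of the phosphatase nor its activity.

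All members share a catalytic signature that begins with a histidine and the active-site cysteine and ends with an arginine. It is shown because it lies in the coding sequence of every member and its bases differ between them. Whether other phosphatases hold it was not examined. The following are the 24 coding bases of the signature in the coding transcript with the most reads of 8 of the genes, all but DUSP4, whose bases are not shown here, 5′ to 3′, from GENCODE 29 transcripts of GRCh38, with the codon of the active-site cysteine in capitals.
DUSP1: cacTGCcaggcaggcatttcccgg
DUSP2: cacTGCcaggcgggtatctcgcgc
DUSP5: cacTGTgaggctgggatctcccgt
DUSP6: catTGCttggctggcattagccgc
DUSP7: cacTGCctggcaggcatcagccgc
DUSP8: cacTGTctggctggcatctcccgc
DUSP10: cacTGCcaggctggggtgtcccgc
DUSP16: cacTGTttagctgggatctcccgc
Each coding sequence held the signature once, that of DUSP4 included, with the cysteine at residue 258 of 367 in DUSP1, 280 of 394 in DUSP4, 293 of 381 in DUSP6, 408 of 482 in DUSP10 and 244 of 665 in DUSP16. Of the 24 bases, 11 were the same in all 8 of these genes. The closest of the 28 pairs was DUSP8 with DUSP16, at 21 identical bases, both of the class that prefers JNK and p38. DUSP6 and DUSP7, the cytoplasmic pair, shared 20 bases, as did DUSP5 with DUSP8, DUSP5 with DUSP16 and DUSP7 with DUSP8, which are pairs from different classes. Within the class that prefers JNK and p38, DUSP10 shared 19 bases with DUSP8 and 18 with DUSP16, so likeness in these bases did not follow class. The least alike, DUSP5 and DUSP2 each with DUSP6, shared 15.

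Promoters were examined because ATF3 binds the cyclic AMP response element (CRE) and related sites. The RefSeq table on GRCh38.p14 gave 300 bases, from 250 before to 50 after the gene start, for 7 members, all but DUSP4 and DUSP5. The motifs searched, on both strands, were the CRE as TGACGTCA or its shorter form TGACGT, which lies within it, the AP-1 site as TGANTCA, and the composite site of C/EBP and ATF factors as TGATGNAA, and the CArG box bound by serum response factor. The promoters of DUSP1 and DUSP8 are shown because they alone among the 7 held a match. Matches are in capitals, and each sequence reads 5′ to 3′ on the minus strand, on which both genes lie (DUSP1 at chr5:172771146-172771445, DUSP8 at chr11:1572222-1572521).
DUSP1: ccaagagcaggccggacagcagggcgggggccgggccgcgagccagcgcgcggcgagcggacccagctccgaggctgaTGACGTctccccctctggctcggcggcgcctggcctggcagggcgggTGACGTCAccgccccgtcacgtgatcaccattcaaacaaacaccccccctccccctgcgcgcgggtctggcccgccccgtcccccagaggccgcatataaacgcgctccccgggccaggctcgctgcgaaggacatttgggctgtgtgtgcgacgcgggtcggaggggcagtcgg
DUSP8: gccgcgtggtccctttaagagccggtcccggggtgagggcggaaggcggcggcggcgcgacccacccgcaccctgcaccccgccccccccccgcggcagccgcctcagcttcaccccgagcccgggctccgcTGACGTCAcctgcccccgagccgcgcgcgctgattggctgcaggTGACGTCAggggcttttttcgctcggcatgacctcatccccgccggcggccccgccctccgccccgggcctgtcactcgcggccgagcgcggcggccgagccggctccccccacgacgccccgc
Positions are given relative to the gene start. DUSP1 held 1 full CRE at -125 to -118 and a shorter match at -172 to -167. In DUSP8 there were 2 full CREs, at -118 to -111 and at -74 to -67. The full CRE occurred in 1.85% of 35116 promoters of the same length and the shorter form in 7.98%. AP-1 sites occurred in 7.71%, composite sites in 3.62% and the CArG box in 1.29% of all promoters, and none of the 3 motifs matched in a member. A match is a run of letters and not evidence of binding, and the starts in the table are not always those of GENCODE 29. Those of DUSP7, DUSP8 and DUSP16 lie upstream of the annotated gene, and both starts of DUSP10 lie inside it. The window of DUSP6 lies inside the gene, downstream of the start of ENST00000279488.8, which held most of its reads, so the promoter of that transcript was not searched.

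The level of the targeted gene bears on the labels. ATF3 (ENSG00000162772.16) had 5.62, 8.33 and 4.52 CPM (reads scaled to library size with TMM factors) in ATF3 knockout replicates 1, 2 and 3, against 22.9, 16.2 and 23.0 CPM in wild-type replicates 1, 2 and 3. Every knockout library lay under every wild-type library, but ATF3 mRNA was still present. Its log2 fold change was -1.75 (SE 0.25, edgeR quasi-likelihood test, Benjamini-Hochberg adjusted p = 0.0098), and an exact two-sided permutation test of 3 against 3 gave p = 0.1, the smallest that this design allows. Over all genes, 2770 of 13131 tested (21.1%) passed an edgeR adjusted p of 0.05, 11.4% higher and 9.72% lower in knockout. No gene passed when wild-type replicate 1 was left out, where the smallest adjusted p was 0.0503, 3496 genes had an unadjusted p under 0.05 and ATF3 stood at -1.68 (adjusted p = 0.0527). On the first principal component of log2 CPM, which held 42.1% of the variance, the knockout libraries lay at 21.0 to 35.5, and wild-type replicate 2 (-13.5) lay nearer to them than wild-type replicates 1 and 3 (-37.9 and -34.9).

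Cell identity markers also moved between the groups. Summed markers of eosinophils came to 118 to 184 CPM in knockout and 37.3 to 52.7 CPM in wild type. All 3 tested of the 12 rose, where 11.4% of all tested genes were called higher. They were ADGRE1 and the granule ribonucleases RNASE2 and RNASE3 (log2 fold changes 1.86 and 1.65 for the ribonucleases). ADGRE1 was scarce, at 1.6 to 2.1 CPM in knockout and 0.62 to 0.68 CPM in wild type. RNASE2 carried most of the sum, at 93.2 to 152 CPM in knockout and 29.4 to 40.9 CPM in wild type. PRG3, CLC and IL5RA had 0 reads in every library. EPX had reads in knockout replicate 1 alone, so the labelled cell type rests on few of its defining markers. Monocyte and macrophage markers summed to 340 to 593 CPM in knockout and 126 to 389 CPM in wild type, with 1 of 5 tested genes higher, CSF1R, and MARCO at 0. Much of this sum was VCAN, which was not called (edgeR adjusted p = 0.297). It ranged from 87.2 to 432 CPM in knockout and from 26.6 to 245 CPM in wild type. Neutrophil granule markers summed to 101 to 140 CPM in knockout and 52.4 to 74.7 CPM in wild type, but this sum was carried by MPO, which rose (log2 fold change 1.21), while the other tested marker, CTSG, had 4.79 ± 1.58 CPM in knockout and 11.02 ± 5.28 CPM in wild type (SD, n = 3 each, log2 fold change -1.20, edgeR adjusted p = 0.0679). In this list ELANE, PRTN3, AZU1, LTF and FCGR3B were at 0. Lymphocyte markers, with none of 3 tested genes called and CD3D, CD3E, MS4A1 and CD8A at 0, summed to 132 to 174 CPM in knockout and 114 to 136 CPM in wild type. That sum was carried by NKG7, at 125 to 166 CPM in knockout and 108 to 128 CPM in wild type. For megakaryocyte and erythroid markers the sums were 0.960 to 2.00 CPM in knockout and 0.432 to 0.738 CPM in wild type (1 of 1 tested higher, PF4, PPBP, GP9, HBA1 and HBB at 0), and for endothelium and stroma 38.2 to 42.0 CPM in knockout and 16.4 to 19.5 CPM in wild type (1 of 2 tested higher, CDH5 and KDR at 0). The endothelium and stroma sum was carried by PECAM1 alone, at 37.1 to 41.4 CPM in knockout and 15.5 to 18.6 CPM in wild type. The part of these shifts in the values of the phosphatases was not tested, and in bulk RNA a change in the mix of cell states and a change of RNA per cell cannot be told apart.

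Per unit length, DUSP6 and DUSP7 made up most of the phosphatase mRNA in both groups. The 9 genes together reached 93.7 ± 8.31 TPM (reads scaled to transcript length and library size, SD, n = 3) in knockout and 99.6 ± 7.30 TPM in wild type, and the libraries overlapped. DUSP6 averaged 46.2 ± 4.84 TPM in knockout and 54.0 ± 7.0 TPM in wild type (SD, n = 3 each), and DUSP7 averaged 27.6 ± 2.74 TPM in knockout and 25.6 ± 0.745 TPM in wild type. Next in order stood DUSP10, at 10.2 ± 1.6 TPM in knockout and 9.87 ± 0.738 TPM in wild type, and DUSP2, at 4.63 ± 0.719 TPM in knockout and 5.33 ± 1.12 TPM in wild type. In knockout these were followed by DUSP4 (2.15 ± 0.760 TPM), DUSP1 (1.59 ± 0.268 TPM) and DUSP5 (1.03 ± 0.140 TPM). In wild type the order below DUSP2 was DUSP1 (2.00 ± 0.215 TPM), DUSP5 (1.62 ± 0.380 TPM) and DUSP4 (0.942 ± 0.0232 TPM), so DUSP4 was the fifth of the family in knockout and the seventh in wild type. DUSP16 and DUSP8 were the scarcest, at 0.262 and 0.0589 TPM in knockout and 0.128 and 0.0299 TPM in wild type. Neighbours whose libraries overlapped were DUSP4 and DUSP1 in knockout, DUSP1 and DUSP5 in wild type, and DUSP16 and DUSP8 in both groups.

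Summed by class, the 4 inducible nuclear genes came to 9.41 ± 0.449 TPM in knockout and 9.89 ± 1.36 TPM in wild type (SD, n = 3 each). Within this class the mean of DUSP4 was higher in knockout and the means of DUSP1, DUSP2 and DUSP5 were lower. DUSP1, DUSP2 and DUSP5 were not called, and TPM values were not tested. DUSP6 and DUSP7 together came to 73.8 ± 7.53 TPM in knockout and 79.7 ± 6.91 TPM in wild type, and the JNK and p38 class to 10.5 ± 1.48 TPM in knockout and 10.0 ± 0.640 TPM in wild type. The libraries of the groups overlapped for each class sum.

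**Figure D1:**
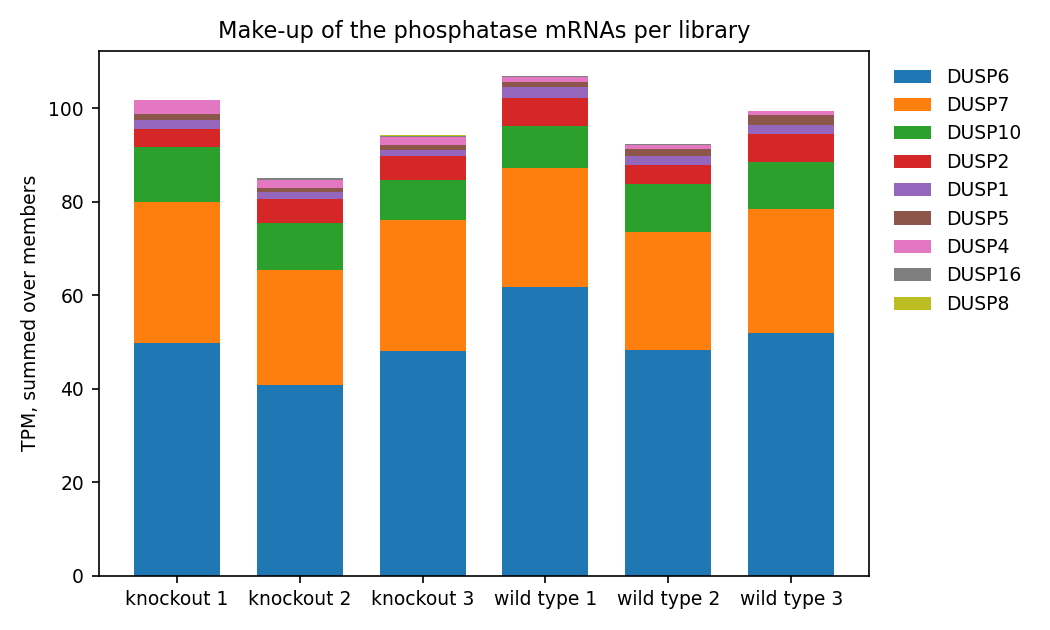
Stacked bars of TPM for the 9 phosphatase genes in each of the 6 libraries, knockout on the left and wild type on the right. The blocks of DUSP6 and DUSP7 fill most of every bar, and the block of DUSP4 is thicker in the 3 knockout libraries (1.69 to 3.03 TPM) than in the 3 wild-type libraries (0.916 to 0.960 TPM).

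Of the 9 genes, 8 passed the filter on low counts and were tested, all but DUSP8. A single member, DUSP4, was higher in knockout at an adjusted p of 0.05 and none was lower, so 12.5% of the tested members were called, below the 21.1% of all tested genes. The median log2 fold change of the 8 was -0.14, against 0.01 over all tested genes. Libraries of the groups did not overlap for DUSP4, DUSP5 and DUSP6, or 3 of the 8, where 43.5% of all tested genes showed no overlap. DUSP4 was the one without overlap on the higher side, where 22.2% of all genes lay, and DUSP5 and DUSP6 were those on the lower side, where 21.4% lay. These few members without overlap lay near the shares over all tested genes, so their sides show nothing particular to the family.

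**Figure D2:**
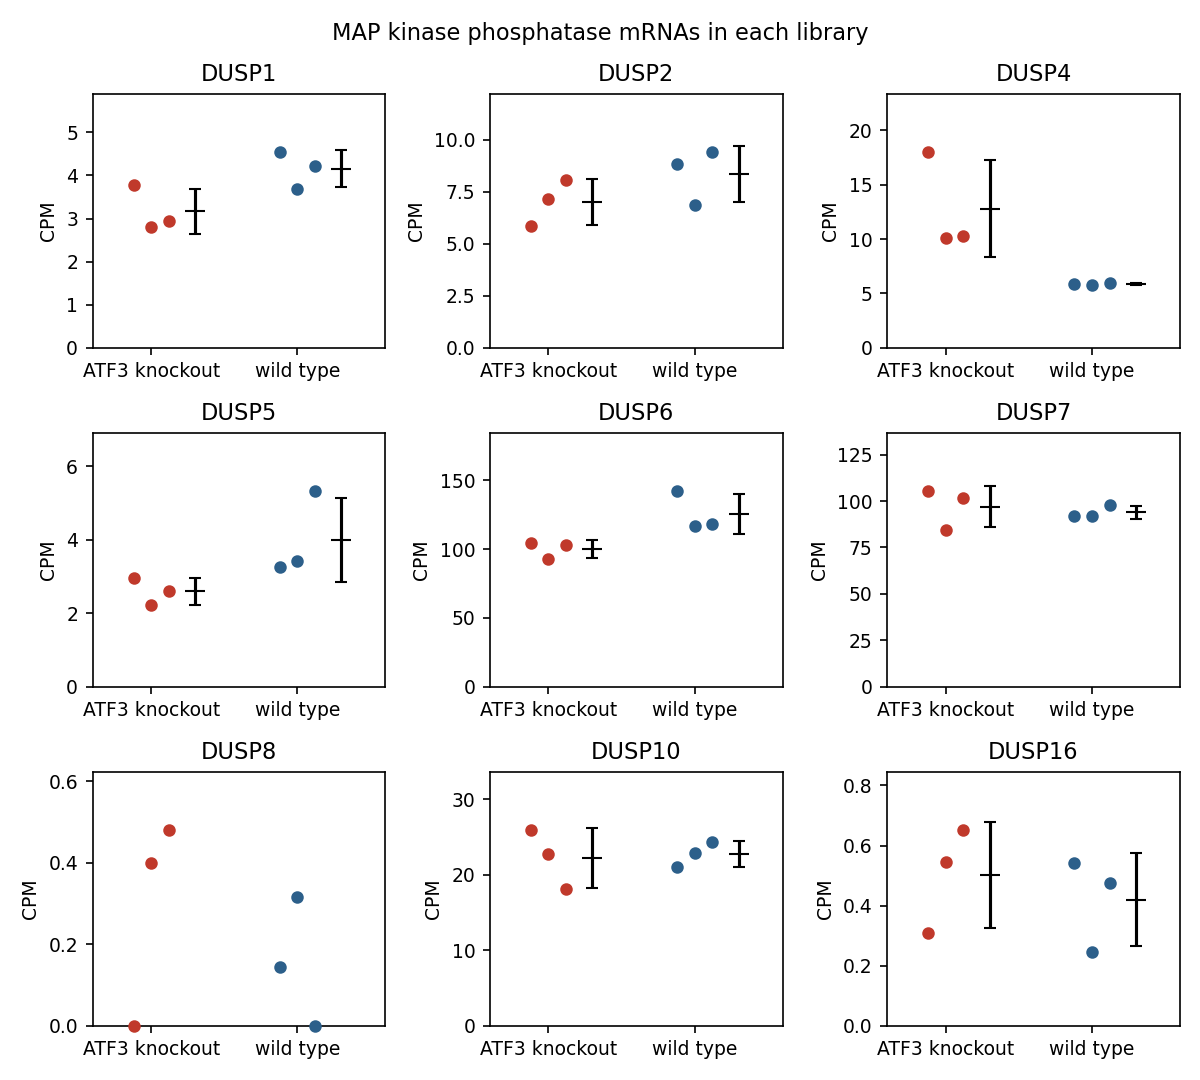
CPM of each of the 9 genes in single libraries (points, ATF3 knockout left in red, wild type right in blue), with the mean and SD of each group beside them, left out for DUSP8, which had libraries at 0. DUSP4 is higher in every knockout library, DUSP5 and DUSP6 are lower in every knockout library, and the groups overlap for the other members.

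DUSP4, an inducible nuclear phosphatase that acts on ERK, JNK and p38, was the member that rose. The gene (ENSG00000120875.8, chromosome 8, 29333064 to 29350668, minus strand, GRCh38) had 468, 278 and 301 estimated reads in knockout replicates 1, 2 and 3, against 163 in each of the 3 wild-type libraries. Scaled to the libraries this was 18.0, 10.1 and 10.3 CPM in knockout and 5.87, 5.73 and 5.94 CPM in wild type. Knockout replicate 1 stood above the other two knockout libraries, and all 3 stood above wild type, whose libraries were nearly equal with a coefficient of variation of 1.88%. Means were 12.8 ± 4.50 CPM in knockout and 5.85 ± 0.11 CPM in wild type (SD, n = 3 each), a 2.19-fold higher level (log2 fold change 1.13, SE 0.24, 95% interval 0.56 to 1.70, edgeR adjusted p = 0.0219). The exact two-sided permutation p was 0.1, the smallest possible. Without knockout replicate 1 the log2 fold change was 0.80 and the call was kept (adjusted p = 0.0306). The call was lost without wild-type replicate 1, 2 or 3 (adjusted p = 0.0901, 0.0529 and 0.0802) at log2 fold changes of 1.13, 1.11 and 1.14, and over the other settings tried the adjusted p ran from 0.000314 to 0.0389. At least 98.2% of its reads in every library were assigned to ENST00000240100.7, the longer of its 2 protein-coding transcripts.

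DUSP1, the classical immediate-early phosphatase that prefers p38 and JNK, had 3.77, 2.80 and 2.95 CPM in knockout and 4.54, 3.69 and 4.23 CPM in wild type (ENSG00000120129.5, chromosome 5, 172768090 to 172771195, minus strand). Knockout replicate 1 lay just above wild-type replicate 2, so the groups overlapped. Its log2 fold change was -0.39 (SE 0.19, 95% interval -0.84 to 0.07, edgeR adjusted p = 0.189), from 77 to 98 reads a library in knockout and 105 to 126 in wild type.

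DUSP2, a phosphatase of activated leukocytes that acts on ERK and p38 (ENSG00000158050.4, chromosome 2, 96143166 to 96145440, minus strand), had 5.85, 7.16 and 8.05 CPM in knockout and 8.83, 6.85 and 9.40 CPM in wild type. Both groups spread over a similar range and overlapped, and the log2 fold change was -0.25 (SE 0.18, 95% interval -0.69 to 0.19, edgeR adjusted p = 0.367). The retained-intron transcript of DUSP2 took 2.89 to 5.63% of its reads in knockout and 0.0 to 9.02% in wild type.

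DUSP5, a nuclear phosphatase selective for ERK (ENSG00000138166.5, chromosome 10, 110497838 to 110511544, plus strand), had 2.96, 2.22 and 2.60 CPM in knockout and 3.24, 3.41 and 5.32 CPM in wild type. No library overlapped between the groups, though knockout replicate 1 and wild-type replicate 1 were close and wild-type replicate 3 stood above the rest. The log2 fold change was -0.62 (SE 0.25, 95% interval -1.22 to -0.02), which did not pass over all genes (edgeR adjusted p = 0.123), and without wild-type replicate 3 it was -0.36 (adjusted p = 0.364).

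**Figure D3:**
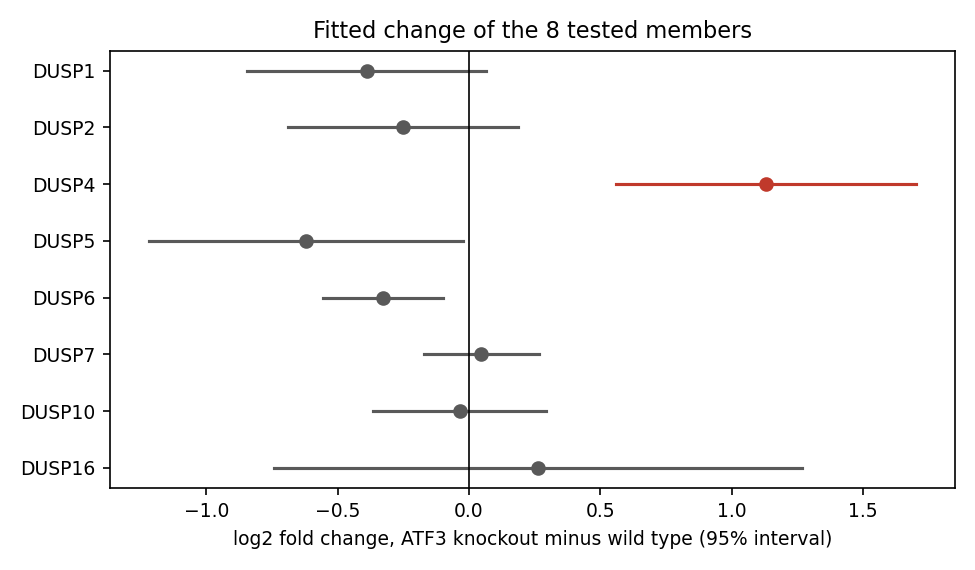
Fitted log2 fold changes (points) with 95% intervals (lines) for the 8 tested phosphatase genes, ATF3 knockout minus wild type. DUSP4, in red, is the gene that passed an adjusted p of 0.05, and the intervals of DUSP5 and DUSP6 lie below 0 without passing it.

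DUSP6, the cytoplasmic ERK phosphatase whose transcription follows ERK activity, was the most abundant member and in CPM was lower in each knockout library, though not in TPM, where the groups overlapped. The gene (ENSG00000139318.7, chromosome 12, 89347232 to 89353271, minus strand) had 2711, 2545 and 3009 reads in knockout and 3943, 3314 and 3236 in wild type. On the CPM scale the values were 104, 92.6 and 103 in knockout and 142, 116 and 118 in wild type, with wild-type replicate 1 the highest of all. Means of 99.98 ± 6.46 CPM in knockout and 125.5 ± 14.4 CPM in wild type (SD, n = 3 each) gave a log2 fold change of -0.33 (SE 0.10, 95% interval -0.56 to -0.10), which just missed the threshold (edgeR adjusted p = 0.0529). The call turned on the setting, since DUSP6 passed with upper-quartile factors (-0.35, adjusted p = 0.0485) and with DESeq2 (-0.33, adjusted p = 0.0136). With the average effective length as an offset it stood at -0.28 (adjusted p = 0.2), and in the fits without a library the adjusted p ran from 0.0555 to 0.154.

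Reads of DUSP6 were divided among several transcripts in similar shares. The longest coding form, ENST00000279488.8, took 62.1, 63.5 and 59.3% of the reads in knockout and 61.7, 62.2 and 60.1% in wild type. The shorter coding form ENST00000308385.6 took 25.6, 23.6 and 25.8% in knockout and 27.6, 25.8 and 28.4% in wild type, and ENST00000547291.1 took 9.03, 12.9 and 12.5% in knockout and 8.62, 11.5 and 9.03% in wild type. The shares overlapped between the groups for the first and last of these forms, while that of ENST00000308385.6 was lower in every knockout library, by a small margin, and was not tested. The processed transcript ENST00000547140.1 had 0 reads in replicate 2 of both groups and 72.3 to 90.1 reads in the other libraries. An antisense gene shares 1875 exon bases with DUSP6 on the opposite strand, and no quantified transcript was matched to it. Since the use of strand in the counting is not stated, any reads of the antisense gene could not be separated from those of DUSP6.

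**Figure D4:**
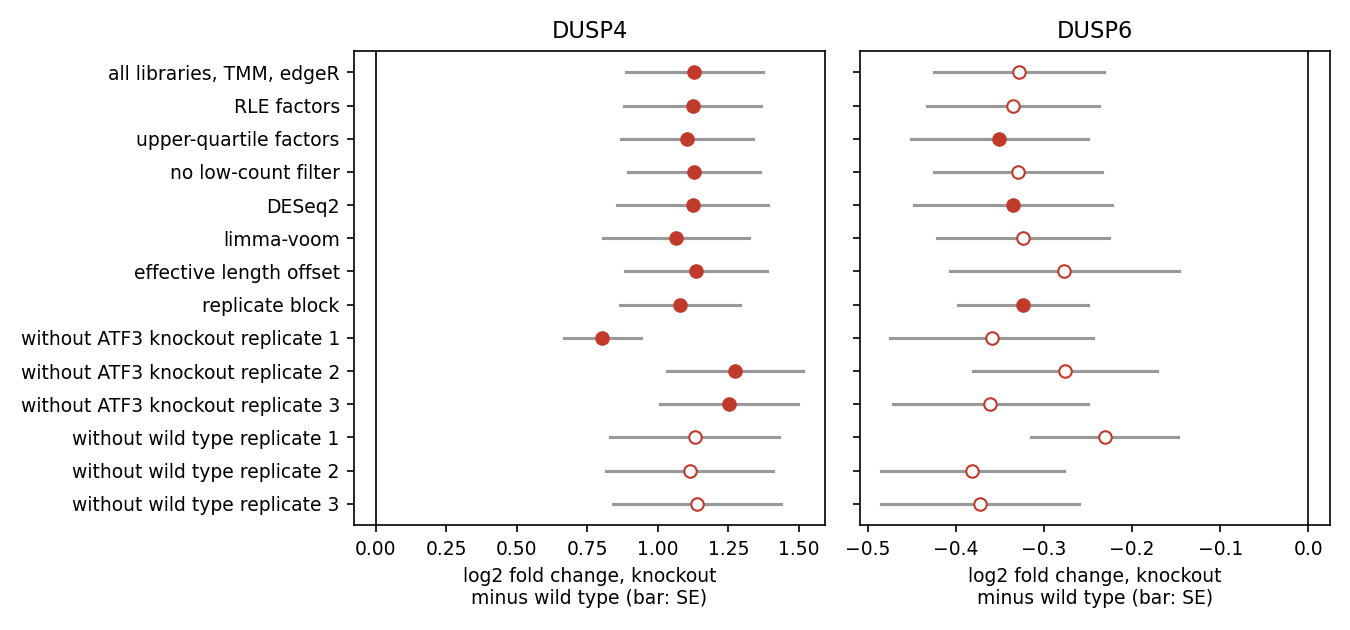
Log2 fold changes of DUSP4 (left) and DUSP6 (right), knockout minus wild type, with SE bars, under the 14 settings, filled where the adjusted p was under 0.05. DUSP4 stays between 0.80 and 1.27 and loses its call without any 1 of the wild-type libraries, whereas DUSP6 stays below 0 and passes in 3 settings.

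DUSP7, the other cytoplasmic ERK phosphatase among the 9 genes, did not follow DUSP6. It had 105, 84.3 and 101 CPM in knockout and 91.7, 92.0 and 98.0 CPM in wild type, with knockout replicate 2 the lowest and knockout replicate 1 the highest of the 6 libraries (ENSG00000164086.9, chromosome 3, 52048919 to 52056550, minus strand). Its log2 fold change of 0.05 (SE 0.09, 95% interval -0.17 to 0.27, edgeR adjusted p = 0.749) bounds a difference more tightly than that of any other member. As a share of the summed TPM of the 9 genes, DUSP7 made up 29.7, 29.03 and 29.6% in knockout and 23.6, 27.2 and 26.6% in wild type, and DUSP6 made up 48.9, 47.8 and 51.1% in knockout and 57.8, 52.4 and 52.2% in wild type. Shares of a total depend on each other, and neither was tested.

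DUSP10, which inactivates JNK and p38 and in mice restrains cytokine production by immune cells, was nearly level between the groups. It lies on the same chromosome as ATF3, 9.08 Mb away (ENSG00000143507.17, chromosome 1, 221701424 to 221742176, minus strand). Values were 25.9, 22.7 and 18.1 CPM in knockout and 21.0, 22.9 and 24.4 CPM in wild type, and the knockout libraries spanned the whole wild-type range. The log2 fold change was -0.04 (SE 0.14, 95% interval -0.37 to 0.29, edgeR adjusted p = 0.881). Between 85.3 and 93.3% of its reads in knockout, and between 88.0 and 92.1% in wild type, belonged to the protein-coding transcript ENST00000366899.4, and most of the rest to ENST00000477026.5, annotated for nonsense-mediated decay.

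DUSP16, a JNK-directed phosphatase that shuttles between nucleus and cytoplasm (ENSG00000111266.8, chromosome 12, 12474210 to 12562383, minus strand), was close to the limit of detection. It had 8, 15 and 19 reads in knockout and 15, 7 and 13 reads in wild type, which gave a log2 fold change of 0.26 (SE 0.42, 95% interval -0.74 to 1.27, edgeR adjusted p = 0.696). With the effective length offset it was 0.97 (SE 0.78, adjusted p = 0.441). The interval is wide in both directions, and no difference was detectable at this depth. DUSP8, which also prefers JNK and p38 (ENSG00000184545.10, chromosome 11, 1554044 to 1571920, minus strand), was not tested, with 0, 11 and 14 reads in knockout and 4, 9 and 0 reads in wild type. A count of 0 allows up to 3 reads, or 0.115 CPM in knockout replicate 1 and 0.109 CPM in wild-type replicate 3, counting error only. The searched window of DUSP8 held 2 full CREs, and DUSP8 had the fewest reads of the members. Of its coding reads 62.7% were assigned to ENST00000331588.4, which starts at base 1565936, inside the gene and downstream of that window. The promoter of that transcript was therefore not searched, and no link between the CREs and the reads was tested.

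Genes that act beside these phosphatases were read from the same fit, from lists that hold 112 further genes of the MAP kinase pathway. Of these, 97 were tested and 24.7% passed, 14 higher and 10 lower in knockout, against the 21.1% of all genes. Leaving out knockout replicate 1 gave 9 higher and 5 lower, and leaving out knockout replicate 2 gave 12 higher and 5 lower. With wild-type replicate 3 left out there were 5 higher and 3 lower, and with wild-type replicate 1 left out 0 of each. None of the 10 ERK, JNK and p38 kinase genes passed in either direction, while 5 of 18 tested MAP3 kinase genes rose and 1 fell. The list closest to the function of the members, ERK feedback and output genes, had 2 of 10 tested genes lower and none higher, with a median log2 fold change of -0.24. The 20% called was near the 21.1% of all tested genes, of which 9.72% were lower and 11.4% higher.

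The called feedback and output genes were ETV5, a transcription factor induced by ERK, and SPRED2, an inhibitor of the step from RAS to RAF. ETV5 had 64.6, 64.1 and 64.2 CPM in knockout and 125.0, 93.4 and 117 CPM in wild type (log2 fold change -0.80, SE 0.11, edgeR adjusted p = 0.0093), and shares 164 exon bases with DGKG on the same strand. SPRED2 had 36.2, 37.3 and 35.9 CPM in knockout and 47.4, 40.5 and 47.0 CPM in wild type (-0.30, SE 0.08, adjusted p = 0.0396), and lost its call with the effective length offset (adjusted p = 0.108), with no low-count filter (adjusted p = 0.0543) and in each fit without 1 library except that without wild-type replicate 2 (adjusted p = 0.061 to 0.154 in the others). In CPM both were lower in every knockout library, like DUSP6, whereas DUSP4 was higher in every one. Over all tested genes 21.4% were lower and 22.2% higher without overlap. In the feedback and output list FOSL1, EGR1 and SPRED1 had positive log2 fold changes (0.40, 0.69 and 0.16). None of them was called, FOSL1 was higher in every knockout library, and the other tested genes of the list had negative log2 fold changes.

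Of the 10 MAP kinase genes, MAPK14, which encodes p38 alpha, stood at 158 ± 19.7 CPM in knockout and 130 ± 19.9 CPM in wild type (SD, n = 3 each, log2 fold change 0.28, edgeR adjusted p = 0.18). MAP2K3, an activator of p38, alone of 7 tested MAP2 kinase genes rose, by 0.66 (SE 0.11, 51.8 ± 5.07 CPM in knockout and 32.8 ± 3.53 CPM in wild type). Of 18 MAP3 kinase genes 5 rose and 1 fell, or 33.3%, against 21.1% of all tested genes. TAOK2 rose by 0.65 (SE 0.08), MAP3K3 by 0.61 (SE 0.08) and MAP3K12, an activator of JNK, by 1.18 (SE 0.16). MAP3K12 shares 1494 exon bases with PCBP2 on the opposite strand, which held 99157 reads over all libraries against its 1228, and MAP3K3 shares 402 with LIMD2, so part of their reads is uncertain.

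Among 10 tested kinases activated by MAP kinases 4 rose and 2 fell, or 60%. Over all tested genes 21.1% were called, 11.4% higher and 9.72% lower, and no list was tested as a set. MKNK2, which phosphorylates the cap-binding factor of translation, rose by 0.64 (SE 0.07), RPS6KA4 rose by 0.44 (SE 0.09) and RPS6KA2, a ribosomal S6 kinase below ERK, fell by 1.00 on the log2 scale (SE 0.19). Of 14 transcription factors that MAP kinases regulate 2 rose and 1 fell, or 21.4%. FOS, an AP-1 subunit, rose by 1.23 (SE 0.21) and JUNB by 0.36 (SE 0.08). MEF2C, a target of p38, fell by 1.27 (SE 0.25), and with effective lengths as an offset the log2 fold change was -2.10. Antisense genes share 422 and 208 exon bases with MEF2C, and no quantified transcript was matched to either. The scaffold genes KSR1, which holds the ERK cascade together, and GAB2, an adaptor of cytokine receptors, fell by 0.80 (SE 0.22) and 0.61 (SE 0.16). None of the 14 tested genes of their list rose, and 14.3% were called. KSR1 lost its call with the effective length offset (adjusted p = 0.0687). Other dual-specificity phosphatases and kinase-interaction-motif (KIM) tyrosine phosphatases had 14 tested genes, of which 2 rose and 2 fell, or 28.6%. SSH3, a cofilin phosphatase, rose by 1.53 (SE 0.25, 15.0 ± 3.54 CPM in knockout and 5.16 ± 1.24 CPM in wild type), and the atypical phosphatases DUSP12 and DUSP28 fell by 0.49 (SE 0.10) and 0.55 (SE 0.10). DUSP28 shares 463 exon bases with ANKMY1 and lost its call with the effective length offset (adjusted p = 0.295).

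**Figure D5:**
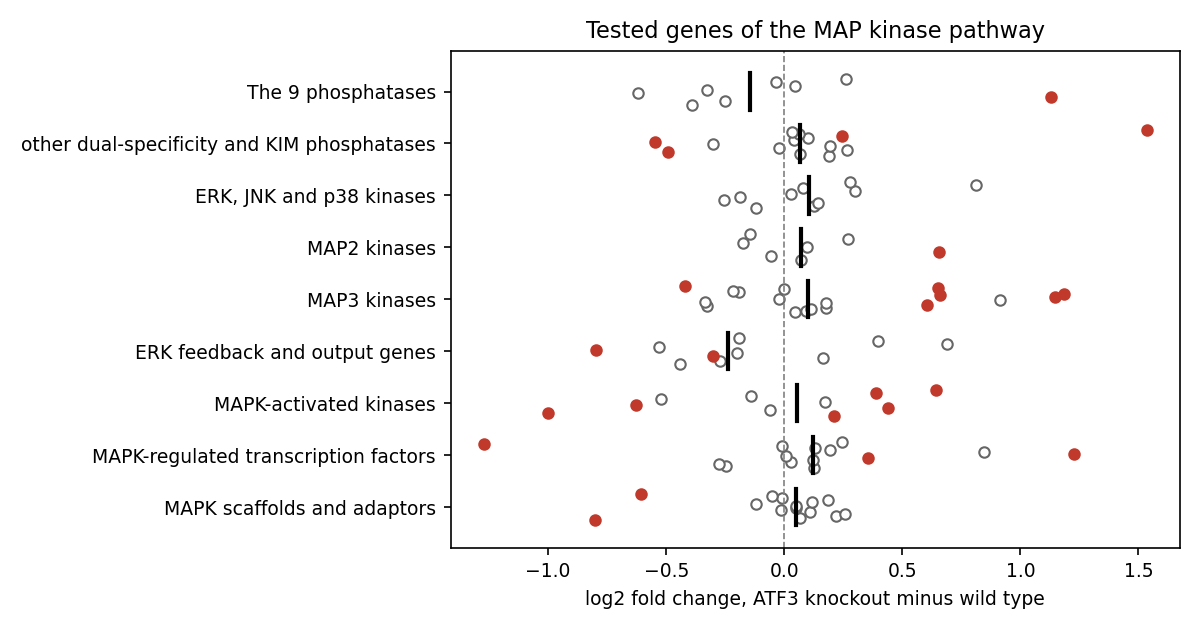
Log2 fold changes, ATF3 knockout minus wild type, of every tested gene in the lists of the MAP kinase pathway, filled red where the adjusted p was under 0.05, with the median of each list as a black bar. The phosphatases (median -0.14) and the ERK feedback and output genes (median -0.24) have their medians below 0, and the other 7 lists have medians of 0.05 to 0.12.

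The genes whose pattern over the 6 libraries was most like that of DUSP4 were sought among tested protein-coding genes, by the root mean square difference of centred log2 CPM. CORO6, a coronin gene, was the nearest at 0.13, with 1.19, 0.618 and 0.720 CPM in knockout and 0.360, 0.386 and 0.292 CPM in wild type. At this low level CORO6 lost its call in all 6 fits without 1 library (edgeR adjusted p = 0.0553 to 0.155). It also lost the call in 4 of the 6 other settings that gave it an adjusted p. FOS followed at 0.18, with 25.6, 19.5 and 14.5 CPM in knockout and 7.46, 8.85 and 9.11 CPM in wild type, and AOAH, an enzyme that inactivates endotoxin, also at 0.18, with 18.9, 11.5 and 12.3 CPM in knockout and 8.15, 8.68 and 8.31 CPM in wild type. Each was highest in knockout replicate 1, as DUSP4 was. They were selected for that likeness, so their own differences add nothing to that of DUSP4. The fits without a library were read for 21 called genes, those named from the pathway and likeness lists with RNASE2 and RNASE3. The called markers ADGRE1, MPO, CSF1R and PECAM1 were not among them. Without wild-type replicate 1, where no gene of any kind passed, all 21 lost the call (edgeR adjusted p of 0.0503 to 0.154). None of the 21 changed sign. The call was lost by 12 when wild-type replicate 3 was left out, by 8 when knockout replicate 1 was and by 6 when knockout replicate 2 was.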

How the data were processed

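Per the labels, polyadenylated RNA of 3 ATF3 knockout and 3 wild-type EoL-1 libraries was made into libraries with a stranded mRNA kit. The authors deposited 1 Salmon table per library with estimated counts and TPM values for 177456 transcripts, and lengths and effective lengths in bases. The submitters' processing notes name FastQC 0.11.9, Salmon 1.6.0 and hg38. The transcriptome release, library type and bias options are not stated in the sources at hand. The estimated counts summed to between 26766103 and 30117281 per library.

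GENCODE 29 (GRCh38) assigned 167027 transcripts to genes by their unversioned identifiers. The remaining 10429, with 3.59 to 3.82% of the reads, were left out. Counts were summed over 35052 genes, rounded and tested with the quasi-likelihood test of edgeR 4.0.16 (R 4.3.3) on group alone, with TMM factors, the default filter (minimum 10 reads), 13131 genes tested and Benjamini-Hochberg adjustment at 0.05. A positive log2 fold change means higher in knockout. The SE is the absolute log2 fold change over the square root of F, and intervals use the moderated degrees of freedom. The deposited TPM were summed per gene and not tested. Alternatives used RLE or upper-quartile factors, no filter, DESeq2 1.42.0, limma-voom 3.58.1, an effective length offset, the replicate block and the fits without a library. The pipeline was tested on simulated data. The members and lists were chosen with earlier results of these data known. Besides all members, the text names up to 3 called genes per list by smallest p, or the most abundant where none was called, and the 3 genes most like the called member with the smallest p. RNASE2, RNASE3, ADGRE1, MPO, CTSG, CSF1R, VCAN, NKG7, PECAM1, FOSL1, EGR1, SPRED1 and the marker genes at or near 0 were named after their values were seen.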

Additional observations from a re-analysis of the deposited data

How the results depend on the processing

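With 4 residual degrees of freedom these counts depend on single libraries. Leaving out 1 library at a time gave 0 to 1370 genes higher and 0 to 1388 lower over all genes, 0 to 1 phosphatases higher, 0 to 13 higher and 0 to 10 lower genes of the other pathway lists, and an ATF3 log2 fold change between -2.03 and -1.58. The zeros came without wild-type replicate 1, and for the phosphatases without any of the 3 wild-type libraries. In the same fits the log2 fold changes ran from -0.016 to 0.14 for DUSP7, from -0.16 to 0.0847 for DUSP10 and from -0.0122 to 0.51 for DUSP16, so these 3 changed sign, while DUSP1, DUSP2, DUSP4, DUSP5 and DUSP6 kept theirs. One phosphatase, DUSP6, was called lower with upper-quartile factors, with DESeq2 and with the replicate block (1 in each, against 0). The effective length offset left 723 higher and 661 lower genes, and 6 lower genes of the pathway lists; the cause was not tested. Replicate numbers are shared by the groups, but same-numbered libraries deviated together with correlations of -0.092, 0.106 and 0.196, so the numbers were not taken as pairs. As a block they gave 1225 genes higher and 1093 lower, with DUSP4 at 1.08 (adjusted p = 0.0319) and DUSP6 at -0.32 (adjusted p = 0.0424). Under the block MAPK14 passed (0.28, adjusted p = 0.0445), whereas SPRED2, CORO6 and AOAH did not (adjusted p = 0.0706, 0.0703 and 0.059). Not every library correlated best with its own number. DESeq2 gave no adjusted p for DUSP16 or CORO6. Depth limits DUSP8 and DUSP16.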

Other observations

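The difference in DUSP6 depended on the scale on which it was read. In CPM every knockout library lay below every wild-type library, whereas in deposited TPM the values were 49.8, 40.7 and 48.1 in knockout and 61.9, 48.4 and 51.9 in wild type, and knockout replicate 1 lay above wild-type replicate 2. The average effective length of the DUSP6 transcripts, weighted by their TPM, was 1862, 2071 and 1830 bases in knockout and 1966, 2041 and 1908 bases in wild type. DUSP4, by contrast, was higher in each knockout library on both scales, with 3.03, 1.74 and 1.69 TPM in knockout and 0.960, 0.916 and 0.949 TPM in wild type.

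Members also differed in how evenly the libraries of a group agreed. For DUSP4 the coefficient of variation of CPM was 35.1% in knockout and 1.88% in wild type, and for DUSP7 11.5% in knockout and 3.77% in wild type. DUSP5 went the other way, with 14.3% in knockout and 28.9% in wild type. With 3 libraries a group these are descriptions and were not tested.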
